A study of Mus musculus with 24 samples.

Results

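The genes described here are 10 granule proteins and receptors of eosinophils, basophils and mast cells: Prg2, Prg3, Epx, Ear2, Il5ra, Siglecf, Mcpt8, Prss34, Cpa3 and Fcer1a. They were chosen by name, as the rows of the expression table whose Ensembl gene identifiers carry these symbols in GENCODE M21, and all 10 of 10 were found among the 54752 genes of the table. RNA-seq of bone marrow cells covered 24 male C57BL/6 mice of the MHU-3 mission, with a library per mouse and 6 mice per group. GC-WT mice were wild-type ground controls, FL-WT mice were wild-type and spent 31 days in space, GC-KO mice were ground controls whose gene of the transcription factor Nrf2 had been knocked out (Nrf2-KO), and FL-KO mice were Nrf2-KO mice that flew. The flight mice were 8 weeks old at transport. Ground controls were kept in matching cages on Earth, so that launch, weightlessness, landing and handling after the return cannot be told apart.

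Eosinophils, basophils and mast cells are rare granulocytes that mature from progenitors of the bone marrow, where eosinophil and basophil precursors fill their granules before release. Eosinophil granules are packed with cationic proteins, basophil and mast cell granules with histamine and proteases, and the high-affinity IgE receptor triggers the release of the latter. Nrf2 is a transcription factor that switches on antioxidant and detoxifying enzymes. Because the RNA came from all cells of the marrow together, fewer cells of a type and less RNA per cell cannot be told apart in any value given here.

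Genes of these cells are known targets of GATA factors, whose core motif is GATAA. The stretches of 250 bases before the annotated start were taken from RefSeq (GRCm38.p6) for the 9 members that matched, and Prg2 is named without a sequence. They are shown for the 5 granule protein genes among these whose levels fell in FL-KO vs. FL-WT mice at an adjusted p under 0.1 (described further on), each 5′ to 3′ on the gene's own strand, with every GATAA match in capitals (TTATC where the match lies on the opposite strand). The Prg3 stretch is at chr2:84987965-84988214 on the plus strand, Epx at chr11:87875537-87875786 on the minus strand, Ear2 at chr14:44102404-44102653 on the plus strand, Prss34 at chr17:25298144-25298393 on the plus strand and Cpa3 at chr3:20242182-20242431 on the minus strand.
Prg3: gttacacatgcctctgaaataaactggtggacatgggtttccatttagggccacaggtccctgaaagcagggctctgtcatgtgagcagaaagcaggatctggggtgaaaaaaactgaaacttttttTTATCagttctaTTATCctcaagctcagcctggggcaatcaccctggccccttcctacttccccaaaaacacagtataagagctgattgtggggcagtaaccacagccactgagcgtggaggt
Epx: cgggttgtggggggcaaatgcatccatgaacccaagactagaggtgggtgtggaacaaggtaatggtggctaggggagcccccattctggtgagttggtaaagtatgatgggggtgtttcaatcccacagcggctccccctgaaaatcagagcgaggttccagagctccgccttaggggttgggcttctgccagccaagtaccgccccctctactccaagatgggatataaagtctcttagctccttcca
Ear2: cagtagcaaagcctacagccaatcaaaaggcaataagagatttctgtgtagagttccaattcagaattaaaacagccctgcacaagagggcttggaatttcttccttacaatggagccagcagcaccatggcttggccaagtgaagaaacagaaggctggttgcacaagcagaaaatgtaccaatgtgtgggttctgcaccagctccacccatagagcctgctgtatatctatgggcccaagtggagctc
Prss34: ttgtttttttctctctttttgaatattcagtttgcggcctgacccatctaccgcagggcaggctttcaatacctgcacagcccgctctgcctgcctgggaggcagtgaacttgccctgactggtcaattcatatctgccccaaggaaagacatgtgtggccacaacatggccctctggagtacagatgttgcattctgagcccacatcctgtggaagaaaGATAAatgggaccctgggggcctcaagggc
Cpa3: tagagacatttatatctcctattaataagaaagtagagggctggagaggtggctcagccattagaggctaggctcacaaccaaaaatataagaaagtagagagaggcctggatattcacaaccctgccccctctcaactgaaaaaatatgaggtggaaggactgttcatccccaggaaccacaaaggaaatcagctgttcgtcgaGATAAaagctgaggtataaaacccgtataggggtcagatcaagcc

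GATAA was found on either strand in 5 of the 9 members (Prg3, Il5ra, Prss34, Cpa3 and Fcer1a), against 22.6% of 32851 promoters of the same length. The nearest match to the start was at 30 bases upstream in Prss34 and at 45 bases upstream in Cpa3, and Prg3 held 2 matches on the opposite strand. The stretches of Epx and Ear2 held none. The antioxidant response element bound by Nrf2, searched as TGACNNNGC on both strands, matched in 3 of 9 members (Prg3, Il5ra and Fcer1a) and in 10.2% of all promoters. The C/EBP motif TTGCNNAA matched in 2 of 9 (Ear2 and Fcer1a) and in 9.6% of all. None of these matches overlapped another. They describe letters in these windows alone.

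The deposited values were transcript abundances (TPM), which are levels per transcript length scaled to the same total, and each library summed to between 999999.5 and 1000001.1. Depth was therefore unknown and no counting error could be given. Nfe2l2, the gene of Nrf2, ranged from 17.05 to 26.06 TPM in GC-WT mice, from 11.39 to 27.26 TPM in FL-WT mice, from 3.6 to 7.18 TPM in GC-KO mice and from 2.22 to 4.31 TPM in FL-KO mice, so that no Nrf2-KO library reached a wild-type one. The 12373 genes above 1 TPM in at least 1 library, all 10 members among them, were compared between groups by limma with log2(TPM + 1) as the value and Benjamini-Hochberg adjustment. Differentially expressed genes (DEGs) were those with an adjusted p under 0.1 that also changed at least 2-fold on this scale. Log2 fold changes here are differences of mean log2(TPM + 1), which are smaller than the ratio of TPM for low genes. A few small RNAs took between 35.4% and 59.6% of TPM per library, and the 12373 genes had medians away from 0 in each comparison of log2 fold changes. For flight against ground this median was -0.24 in wild-type mice (FL-WT vs. GC-WT) and -0.29 in Nrf2-KO mice (FL-KO vs. GC-KO). For Nrf2-KO against wild-type mice it was -0.22 on the ground (GC-KO vs. GC-WT) and -0.25 after flight (FL-KO vs. FL-WT). Median-of-ratios scaling brought these medians to 0.03, 0.00, 0.02 and 0.02, and changes on that scale are called relative to all genes below.

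Over all 24 libraries, the mean level was highest for Prg2, the major basic protein of eosinophil granules, at 688 TPM, rank 97 among all genes. Ear2 followed at 151 TPM, Epx at 46.5, Prss34 at 42.1, Mcpt8 at 41.8 and Prg3 at 24 TPM. Cpa3 was at 8.28 TPM, Fcer1a at 5.75, Siglecf at 2.74 and Il5ra at 1.67 TPM. Epx, Prss34 and Mcpt8 were neighbours in this order whose ranges over the libraries overlapped. Of the defining markers of tissue mast cells, the tryptase gene Tpsab1 and the chymase gene Mcpt4 were at 0 in every library, Tpsb2 reached at most 0.03 TPM, Cma1 0.23 TPM and Mrgprb2 0.01 TPM. Ms4a2, the beta chain of the IgE receptor, averaged 4.40 TPM and Cd200r3, a basophil receptor, 2.30 TPM in GC-WT mice. The proteases and the IgE receptor chain are thus called basophil and mast cell genes by their names, while mast cell granule markers were at or near 0. Ear2 belongs to a family of near copies, and 23.4% of its transcript's stretches of 75 bases also occur in other genes, so its level is uncertain. The other 9 members shared no such stretch.

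**Figure D1:**
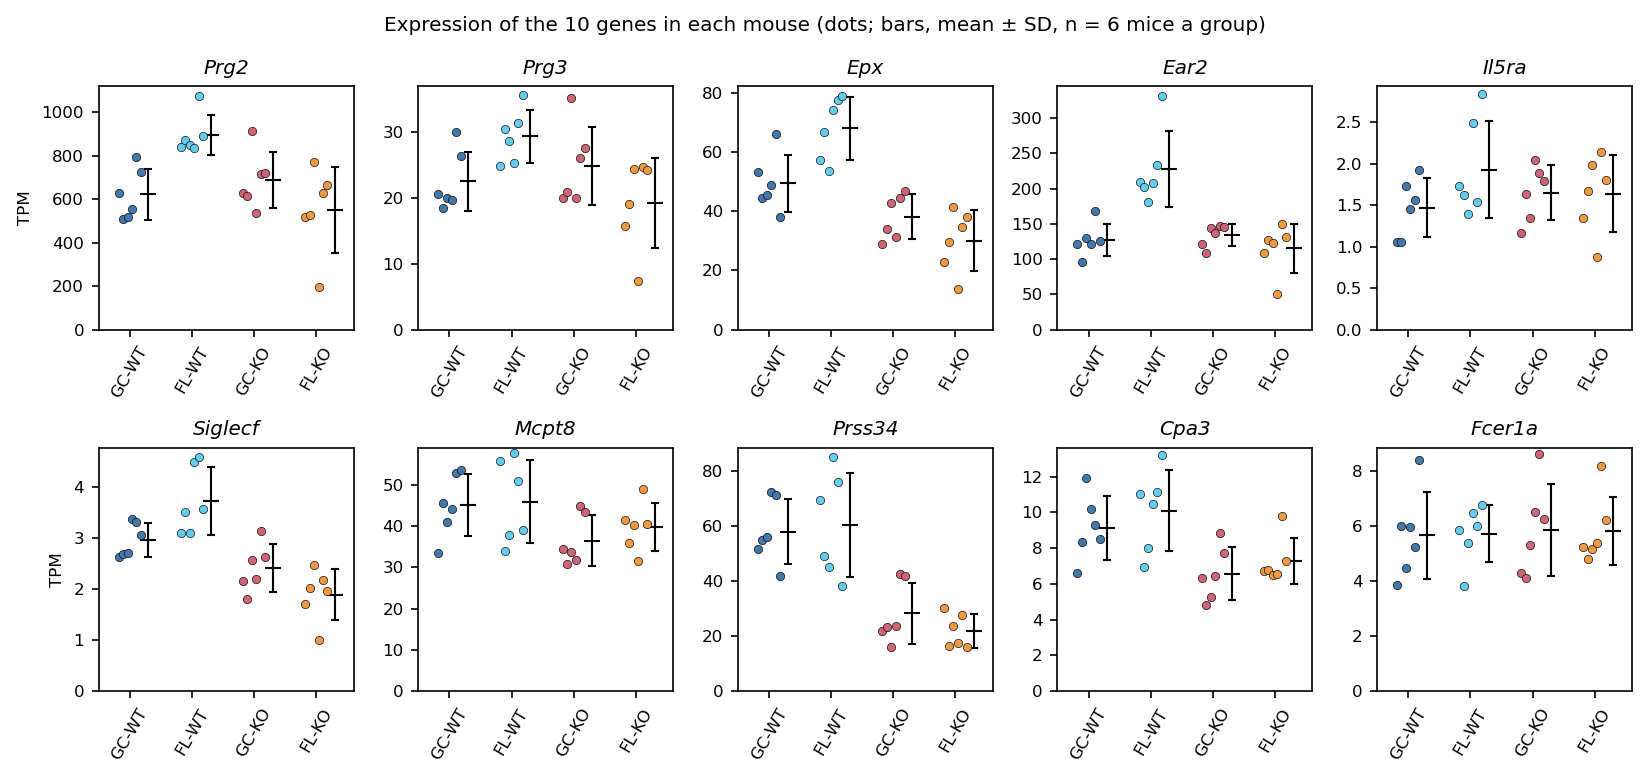
TPM of the 10 genes (y axis, from 0, a panel per gene) in the 4 groups, with a dot per mouse and bars for the mean ± SD (n = 6). Prg2 and Ear2 of FL-WT mice lie above all GC-WT mice, Prss34 is low in both Nrf2-KO groups, and a single FL-KO mouse lies below the others of its group in Prg2, Prg3, Epx and Ear2.

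Of the 4 granule protein genes of eosinophils, 3 rose in FL-WT vs. GC-WT mice on log2(TPM + 1) (Prg2, Epx and Ear2). Among all tested genes, 0.994% rose with flight in these mice. All 4 fell in FL-KO vs. FL-WT mice on this scale, where 47.2% of all tested genes fell. Relative to all genes, the falls of Prg2 and Prg3 did not pass (limma adjusted p = 0.198 and 0.33). The rise of Prg3 in FL-WT vs. GC-WT mice did pass on that scale (adjusted p = 0.0293). Ear2 and Epx passed the adjusted threshold in both comparisons under every scaling tried. Ear2 was 1.79 times as high in FL-WT as in GC-WT mice by mean TPM and 1.98 times as low in FL-KO as in FL-WT mice, and the corresponding ratios for Epx were 1.38 and 2.26.

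Prg2 (ENSMUSG00000027073.5, chromosome 2 of GRCm38, 84980461 to 84983632, plus strand) encodes the major basic protein, a toxic cationic protein of the granule core. Its lowest, median and highest levels were 507.45, 590.8 and 794.38 TPM in GC-WT mice and 835.28, 860.1 and 1075.67 TPM in FL-WT mice. In Nrf2-KO mice, they were 534.21, 670.2 and 911.9 TPM on the ground and 194.74, 577 and 769.33 TPM in flight. All FL-WT mice lay above all GC-WT and all FL-KO mice, while the Nrf2-KO groups overlapped each other. Prg2 rose in FL-WT vs. GC-WT, where its log2 fold change was 0.54 (SE 0.213, limma adjusted p = 0.0579), a call that was lost under quantile normalization (0.49, adjusted p = 0.111) and in 4 of the 12 fits that left out a mouse, those without GC-WT mouse 05, 06 or 07 or FL-WT mouse 05 (highest adjusted p = 0.126). It fell by 0.81 in FL-KO vs. FL-WT (SE 0.213, adjusted p = 0.00292), although relative to all genes the change was -0.40 (adjusted p = 0.198). In FL-KO vs. GC-KO, its log2 fold change was -0.41 (adjusted p = 0.113), and 0.04 relative to all genes.

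Prg3 (ENSMUSG00000027072.13, 84988215 to 84993886 on the same strand) lies 4582 bases after Prg2 and encodes a homologue of the major basic protein. Its levels were 18.45, 20.32 and 29.95 TPM (lowest, median and highest) in GC-WT mice and 24.89, 29.55 and 35.6 TPM in FL-WT mice. The values in GC-KO mice were 19.97, 23.48 and 35.13 TPM, and in FL-KO mice 7.39, 21.62 and 24.63 TPM. Every FL-KO mouse was below every FL-WT mouse, by a narrow margin, and the other groups overlapped. Prg3 fell in FL-KO vs. FL-WT by 0.67 on the log2 scale (SE 0.204, adjusted p = 0.00859 by limma), against -0.29 relative to all genes (adjusted p = 0.33) and -0.25 under quantile normalization (adjusted p = 0.356). In FL-WT vs. GC-WT the log2 fold change was 0.38 (95% CI -0.04 to 0.80, adjusted p = 0.151), and 0.75 relative to all genes (adjusted p = 0.0293). The pair of neighbouring genes lies 9.28 Mb from the end of Nfe2l2 on chromosome 2, so alleles near the targeted locus cannot be told apart from the loss of Nrf2 for them.

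Epx (ENSMUSG00000052234.2, chromosome 11, 87864000 to 87875536, minus strand) encodes eosinophil peroxidase, which makes hypohalous acids. Its lowest, median and highest levels in GC-WT mice were 38.22, 47.23 and 66.33 TPM, and in FL-WT mice 53.57, 70.54 and 79.19 TPM. In GC-KO mice they were 29.04, 38.52 and 46.95 TPM, and in FL-KO mice 13.69, 32.23 and 41.65 TPM. The FL-KO group lay wholly below the FL-WT group, and in the other 3 comparisons the ranges overlapped. Epx rose in FL-WT vs. GC-WT by 0.46 on the log2 scale (SE 0.194, limma adjusted p = 0.0735), and by 0.84 relative to all genes (adjusted p = 0.00626). The call was lost in 7 of 12 fits without a mouse, with adjusted p up to 0.132: those without GC-WT mouse 05, 06, 07 or 10 or FL-WT mouse 05, 08 or 10. Epx was a DEG in FL-KO vs. FL-WT, at 2.33-fold lower on the log2(TPM + 1) scale (log2 fold change -1.22, SE 0.194, adjusted p = 1.52e-05), and relative to all genes it fell by 0.83 (adjusted p = 0.00225). In GC-KO vs. GC-WT the change was -0.37 (adjusted p = 0.137).

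Ear2 (ENSMUSG00000072596.4, chromosome 14, 44102654 to 44103534, plus strand) encodes an eosinophil-associated ribonuclease. Levels ran from 96.45 over a median of 123.7 to 167.76 TPM in GC-WT mice, and from 180.71 over 208.7 to 331.3 TPM in FL-WT mice. On the Nrf2-KO side they ran from 108.76 over 140.6 to 147.14 TPM in GC-KO mice and from 50.27 over 124.5 to 149.2 TPM in FL-KO mice. FL-WT mice were above all mice of the other groups, which overlapped each other. The log2 fold change in FL-WT vs. GC-WT was 0.83 (SE 0.189, 95% CI 0.44 to 1.21, adjusted p = 0.003 by limma), and it stayed between 0.71 and 0.91 with adjusted p of at most 0.00864 when each mouse was left out in turn. The rise relative to all genes was 1.21 (adjusted p = 0.000396), past the fold threshold. Ear2 was a DEG in FL-KO vs. FL-WT (log2 fold change -1.03, SE 0.189, adjusted p = 8.14e-05), with -0.63 relative to all genes (adjusted p = 0.0164). It was short of the fold threshold without FL-WT mouse 10 (-0.91) or FL-KO mouse 09 (-0.81). Flight in Nrf2-KO mice gave -0.29 (adjusted p = 0.205), and the genotype on the ground 0.09 (adjusted p = 0.753).

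The eosinophil surface receptors were low. Il5ra (ENSMUSG00000005364.11, chromosome 6, 106710357 to 106749037, minus strand) encodes the alpha chain of the receptor for IL-5, the growth factor of eosinophils. It ranged from 1.06 to 1.93 TPM in GC-WT mice (median 1.51), from 1.39 to 2.84 TPM in FL-WT mice (median 1.675), from 1.17 to 2.05 TPM in GC-KO mice (median 1.715) and from 0.87 to 2.14 TPM in FL-KO mice (median 1.74). All 4 groups overlapped. No comparison of Il5ra passed the threshold on log2(TPM + 1), and in FL-WT vs. GC-WT the log2 fold change was 0.24 (95% CI -0.04 to 0.52, adjusted p = 0.179 by limma), whereas relative to all genes it passed (0.45, adjusted p = 0.00926).

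Siglecf (ENSMUSG00000039013.16, chromosome 7, 43351341 to 43359531, plus strand) encodes a sialic acid-binding inhibitory receptor that marks mouse eosinophils. Its lowest, median and highest levels were 2.63, 2.88 and 3.36 TPM in GC-WT mice and 3.09, 3.535 and 4.59 TPM in FL-WT mice. In GC-KO mice they were 1.81, 2.375 and 3.14 TPM, and in FL-KO mice 1, 1.985 and 2.46 TPM. Every FL-KO mouse was below every wild-type mouse of either kind, and the remaining pairs of groups overlapped. Siglecf fell in FL-KO vs. FL-WT by 0.72 on the log2 scale (SE 0.124, adjusted p = 3.76e-05 by limma) and by 0.44 relative to all genes (adjusted p = 0.00456), and its mean TPM was 1.97 times as low. In FL-WT vs. GC-WT the log2 fold change was 0.25 (95% CI -0.01 to 0.50, adjusted p = 0.126), and 0.52 relative to all genes (adjusted p = 0.00368), and in GC-KO vs. GC-WT it was -0.22 (adjusted p = 0.166) on log2(TPM + 1) but 0.02 relative to all genes.

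Of the 4 basophil and mast cell genes, none passed the threshold for flight in either genotype on log2(TPM + 1). Relative to all genes, Mcpt8, Cpa3 and Fcer1a rose with flight in both genotypes. On that scale, 20.6% of all tested genes rose with flight in wild-type mice and 19.1% in Nrf2-KO mice. Prss34 was lower in Nrf2-KO than in wild-type mice on the ground and in flight under every scaling, Cpa3 passed the threshold in both of these comparisons on log2(TPM + 1) but not relative to all genes, and Mcpt8 and Fcer1a passed in none on log2(TPM + 1).

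Prss34 (ENSMUSG00000056399.2, chromosome 17, 25298394 to 25300165, plus strand) encodes mast cell protease 11, a tryptase-like serine protease of basophils. Its lowest, median and highest levels were 41.72, 55.32 and 72.16 TPM in GC-WT mice and 38.2, 59.18 and 85.04 TPM in FL-WT mice. In GC-KO mice they were 16.08, 23.48 and 42.57 TPM, and in FL-KO mice 16.16, 20.48 and 30.29 TPM. The FL-KO group lay wholly below both wild-type groups, while 2 GC-KO mice (42.57 and 41.83 TPM) passed the lowest GC-WT mouse. The gene was a DEG on the ground (GC-KO vs. GC-WT), at 2.10-fold lower on the log2(TPM + 1) scale (log2 fold change -1.07, SE 0.223, adjusted p = 0.000783 by limma), and after flight (FL-KO vs. FL-WT), at 2.65-fold lower (log2 fold change -1.41, SE 0.223, adjusted p = 1.51e-05). Relative to all genes it fell by 0.74 (adjusted p = 0.0041) and by 1.02, the former short of the fold threshold. Without GC-KO mouse 04, which had the lowest level of its group, the value in GC-KO vs. GC-WT was -0.93 (adjusted p = 0.00371), also short of it. Flight changed Prss34 by a log2 fold change of 0.03 in wild-type mice (95% CI -0.43 to 0.48, adjusted p = 0.94) and of -0.31 in Nrf2-KO mice (adjusted p = 0.252), the latter 0.13 relative to all genes.

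Cpa3 (ENSMUSG00000001865.2, chromosome 3, 20215620 to 20242181, minus strand) encodes carboxypeptidase A3, a granule protease of mast cells and basophils. It ranged from 6.62 to 11.91 TPM in GC-WT mice (median 8.9) and from 6.95 to 13.21 TPM in FL-WT mice (median 10.72). In Nrf2-KO mice it ranged from 4.83 to 8.83 TPM on the ground (median 6.365) and from 6.49 to 9.81 TPM in flight (median 6.745). Wild-type and Nrf2-KO ranges overlapped in both settings. In Nrf2-KO mice, Cpa3 fell by 0.43 on the ground (SE 0.149, adjusted p = 0.0257 by limma) and by 0.42 after flight (SE 0.149, adjusted p = 0.0253), a ratio of mean TPM of 1.39 each time. These calls were lost relative to all genes and under quantile normalization, where the value in FL-KO vs. FL-WT turned to 0.05 (adjusted p up to 0.71).

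Mcpt8 (ENSMUSG00000022157.8, chromosome 14, 56082166 to 56085273, minus strand) encodes a granzyme-like protease that marks mouse basophils. Its levels ranged from 33.41 to 53.61 TPM in GC-WT mice (median 44.93), from 34.03 to 57.71 TPM in FL-WT mice (median 45.08), from 30.83 to 44.98 TPM in GC-KO mice (median 34.12) and from 31.56 to 49.06 TPM in FL-KO mice (median 40.34). All groups overlapped. With flight, its log2 fold change was 0.01 in wild-type mice (95% CI -0.28 to 0.31, adjusted p = 0.95 by limma) and 0.12 in Nrf2-KO mice (adjusted p = 0.478). With the loss of Nrf2, it was -0.30 on the ground (adjusted p = 0.107, and 0.0388, 0.0518 or 0.0686 without GC-WT mouse 03, GC-KO mouse 11 or GC-KO mouse 12) and -0.19 after flight (adjusted p = 0.322). The last 2 were 0.04 and 0.21 relative to all genes, and for flight in Nrf2-KO mice the relative change was 0.56 (adjusted p = 0.0015).

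Fcer1a (ENSMUSG00000005339.10, chromosome 1, 173221284 to 173227214, minus strand) encodes the IgE-binding chain of the high-affinity receptor. Medians in wild-type mice were 5.585 TPM on the ground and 5.925 TPM after flight, and in Nrf2-KO mice 5.765 and 5.295 TPM, within a span from 3.83 to 8.6 TPM over all libraries. The groups overlapped throughout. No log2 fold change was further from 0 than 0.04 on log2(TPM + 1), with a lowest adjusted p of 0.88 by limma. Relative to all genes, Fcer1a rose in every comparison by limma. With flight it rose by 0.35 in wild-type mice (adjusted p = 0.0379) and by 0.41 in Nrf2-KO mice (adjusted p = 0.0144). With the loss of Nrf2 it rose by 0.31 on the ground (adjusted p = 0.0356) and by 0.37 after flight (adjusted p = 0.0114).

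Counted over the 10 members, 3 rose in FL-WT vs. GC-WT at an adjusted p under 0.1 (Prg2, Epx and Ear2), against 0.994% of all tested genes, and none fell, against 39.0% of all. All 10 log2 fold changes were above 0 on log2(TPM + 1), against 13.3% of all genes, and 9 were without the small RNAs, where Mcpt8 was at -0.01. The members' median log2 fold change was 0.24, against -0.24 over all genes. Ranges did not overlap, with flight mice higher, for 2 members (Prg2 and Ear2) and for 0.0970% of all genes. No member was a DEG by limma, against 0.0647% of all genes as DEGs with higher levels, 3 had an unadjusted p under 0.05, and 3 passed an adjusted exact rank sum test. Relative to all genes, 9 members rose (the exception was Prss34) and none fell, against 20.6% and 13.6% of all genes. With no filter on low genes, 1 member rose (Ear2), while Prg2 (adjusted p = 0.128) and Epx (adjusted p = 0.149) did not pass.

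In FL-KO vs. GC-KO, 7 members had lower and 3 higher log2 fold changes, with a median of -0.27 against -0.29 over all genes. Prg3, Epx and Siglecf passed an adjusted p under 0.1 as lower, against 53.1% of all genes. None was a DEG by limma, against 2.13% of all genes as DEGs with lower levels, 1 member had an unadjusted p under 0.05, and none passed the adjusted exact rank sum test. All 10 were above 0 relative to all genes, 4 of them at an adjusted p under 0.1 (Il5ra, Mcpt8, Cpa3 and Fcer1a), and none fell, against 19.1% and 20.4% of all genes, so the direction in this comparison depended on the scaling. The values for Prg3, Epx and Siglecf relative to all genes were 0.005, 0.045 and 0.062. On log2(TPM + 1), their calls were also lost with no filter on low genes (adjusted p from 0.147 to 0.208), in a fit of the compared groups alone (0.116 to 0.157), and without FL-KO mouse 01, 02 or 09 or GC-KO mouse 04, 11 or 12, with adjusted p up to 0.322, and that of Siglecf without FL-KO mouse 12 or GC-KO mouse 09 as well. Prg2 passed in 4 of the 12 fits without a mouse (FL-KO mouse 04, 11 or 12 or GC-KO mouse 09), with an adjusted p down to 0.0568.

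In GC-KO vs. GC-WT, 2 members fell at an adjusted p under 0.1 (Prss34 and Cpa3), against 42.9% of all genes, and 1 was a DEG, against 3.04%. The median of the members was -0.09, against -0.22 over all genes. On the relative scale, 1 fell (Prss34) and 2 rose, Il5ra by 0.29 and Fcer1a by 0.31, against 28.9% and 28.3% of all genes. Without the small RNAs, 5 members fell, with Epx (-0.49, adjusted p = 0.0479), Siglecf (-0.35, adjusted p = 0.0265) and Mcpt8 (-0.41, adjusted p = 0.0048) in addition, and the same 5 fell in a fit of the compared groups alone. In FL-KO vs. FL-WT, 7 members fell at an adjusted p under 0.1, against 47.2% of all genes, and 3 were DEGs (Prss34, Epx and Ear2), against 8.36%. Ranges did not overlap for 6 members, with FL-KO mice lower, against 20.6% of all genes. The members' median log2 fold change was -0.70, against -0.25 over all genes. All 7 kept an adjusted p under 0.1 when each mouse was left out, and relative to all genes 4 fell (Prss34, Epx, Ear2 and Siglecf) and 1 rose (Fcer1a, by 0.37), against 32.9% and 31.9% of all genes, so that the number that fell was near the share of all genes. FL-WT mice enter this comparison as well as FL-WT vs. GC-WT, so that the rise of a gene in the former group counts in both.

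The interaction of flight and genotype, the difference between the change with flight in Nrf2-KO and in wild-type mice, was below 0 for Ear2 (-1.12, SE 0.267), Prg2 (-0.95, SE 0.302), Epx (-0.85, SE 0.274), Prg3 (-0.81, SE 0.288) and Siglecf (-0.50, SE 0.175) on the log2 scale. These 5 had an unadjusted p under 0.05 in limma's model, against 3.03% of all genes in this direction, but none of the 10 passed the adjusted threshold, against 0.0162% of all genes, and the lowest adjusted p was 0.277 for Ear2. For Ear2 the value was -1.05 relative to all genes (adjusted p = 0.188). For the 4 basophil and mast cell genes, the interaction lay between -0.34 (Prss34) and 0.11 (Mcpt8).

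**Figure D2:**
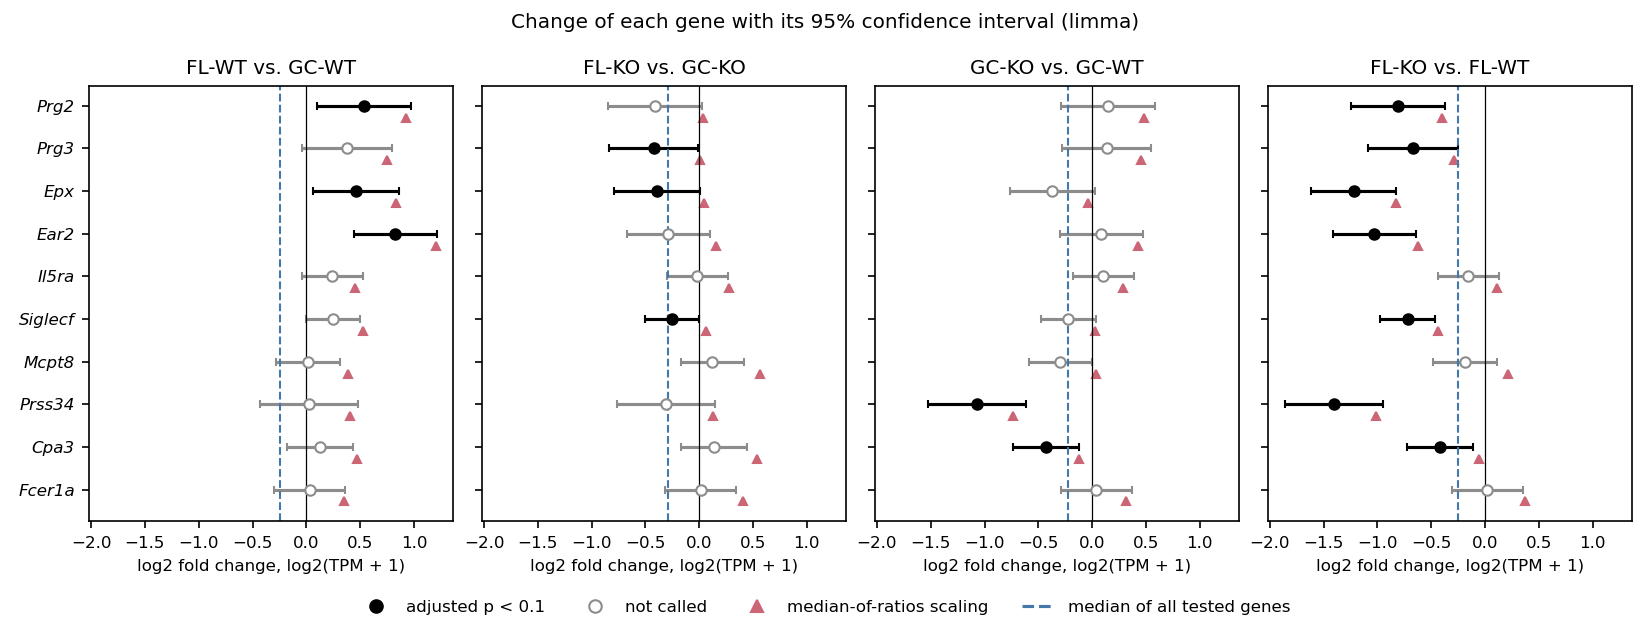
Log2 fold changes of the 10 genes in the 4 comparisons on log2(TPM + 1), with 95% confidence intervals (filled circles have an adjusted p under 0.1), the median of all tested genes as a dashed line, and the values after median-of-ratios scaling as triangles. Ear2 (0.83) and Prg2 (0.54) lead in FL-WT vs. GC-WT, Prss34 (-1.41), Epx (-1.22) and Ear2 (-1.03) lie lowest in FL-KO vs. FL-WT, and most values in FL-KO vs. GC-KO change sign with the scaling.

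FL-KO mouse 09 had the lowest level of its group for 7 of the 10 members. Its Prg2 level was 194.74 TPM, while the other 5 mice ranged from 519.55 to 769.33 TPM, its Ear2 level was 50.27 TPM against 108.4 to 149.2 TPM, and its Epx level was 13.69 TPM against 22.81 to 41.65 TPM. Of 14 other eosinophil genes, it had the lowest level of its group for 7, among them the ribonuclease genes Ear1 (38.59 TPM) and Ear6 (23.99 TPM), lay inside the range for 4 and had the highest level for 3 (Cd24a, Il1rl1 and Gata1). Their summed level, 824.2 TPM, was inside the range of the other mice, 759.5 to 999.9 TPM, but Cd24a alone gave 660.59 TPM of it. Prss34, Cpa3 and Fcer1a lay inside the range of the other mice. Its summed levels were the highest of the group for 8 megakaryocyte markers (141.8 TPM, against 32.2 to 83.5), promyelocyte primary granule genes (565.1 TPM, against 398.8 to 559.9) and other mast cell genes (6.8 TPM, against 3.5 to 5.4), and their part in the result was not tested. Without mouse 09, FL-KO vs. FL-WT gave log2 fold changes of -0.53 for Prg2 (adjusted p = 0.00345 by limma), -0.81 for Ear2 and -1.02 for Epx. FL-KO vs. GC-KO gave -0.14 for Prg2 (adjusted p = 0.415), -0.07 for Ear2 (adjusted p = 0.69) and -0.19 for Epx, whose call was lost (adjusted p = 0.322), as were those of Prg3 (adjusted p = 0.31) and Siglecf (adjusted p = 0.273). The interaction without it was -0.90 for Ear2 (adjusted p = 0.181) and -0.68 for Prg2 (adjusted p = 0.752).

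Of 15 other eosinophil genes tested, 4 rose in FL-WT vs. GC-WT at an adjusted p under 0.1, against 0.994% of all genes: the ribonuclease genes Ear6 (log2 fold change 0.88, adjusted p = 0.01 by limma) and Ear1 (0.82, adjusted p = 0.0171), the lipoxygenase gene Alox15 (0.54, adjusted p = 0.0525) and Id1 (0.53, adjusted p = 0.00818). Another 3 fell, against 39.0% of all genes: Gata1, a transcription factor of the erythroid and eosinophil lineages, by 0.83, Cd24a by 0.53 and Il1rl1, the IL-33 receptor, by 0.33. Relative to all genes, Gata1 alone (-0.46) passed as lower and 8 of the 15 rose, against 13.6% and 20.6% of all genes. Mean Ear1 levels in wild-type mice were 161 TPM on the ground and 285 TPM after flight, against 170 and 140 TPM in Nrf2-KO mice. With the loss of Nrf2 after flight, 11 of the 15 fell, against 47.2% of all genes, 7 of them as DEGs, against 8.36%, which included the shared beta chain of the IL-3, IL-5 and GM-CSF receptors, Csf2rb (-1.75), the GM-CSF receptor gene Csf2ra (-1.46), Ear6 (-1.25) and Ear1 (-1.15). On the relative scale, 9 fell, 2 of them as DEGs, and 1 rose (Cd24a, by 0.56), against 32.9% and 31.9% of all genes. Lower DEGs on that scale were 424 of all 12373 genes. Csf2ra, Csf2rb and Cebpe are also expressed in neutrophils and monocytes. Ccr3, the eotaxin receptor, differed by a log2 fold change of -0.09 (adjusted p = 0.737). Markers of other marrow cells moved as well: the summed level of neutrophil secondary granule and maturation genes was 40660 TPM in GC-WT mice, 55820 TPM in FL-WT mice, 49420 TPM in GC-KO mice and 54770 TPM in FL-KO mice, and that of 8 erythroid genes was 1566, 981, 1659 and 928 TPM in the same order. S100a8 (mean 15105 TPM in GC-WT mice) and S100a9 (16573 TPM) made up most of the neutrophil sum. Of the 11 neutrophil genes, 5 rose and none fell in FL-WT vs. GC-WT at an adjusted p under 0.1, against 0.994% and 39.0% of all genes. None of 7 promyelocyte primary granule genes rose there. Relative to all genes, 8 of the 11 and 6 of the 7 rose, against 20.6% of all genes, so a rise with flight was not particular to eosinophil genes. In GC-KO vs. GC-WT, 6 of the 11 neutrophil genes fell, against 42.9% of all genes, and 2 rose. In FL-KO vs. FL-WT, 8 fell and none rose, against 47.2% of all genes that fell. The part of these markers in the results was not tested.

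Of 15 other basophil genes, none rose and 1 fell with flight in wild-type mice, against 0.994% and 39.0% of all genes, and 6 fell with the loss of Nrf2 on the ground, against 42.9% of all. On the relative scale, 6 rose and none fell in the former comparison (20.6% and 13.6% of all genes), and 3 rose and 6 fell in the latter (28.3% and 28.9%). Hdc, the enzyme that makes histamine, was the single DEG of the latter comparison (log2 fold change -1.17) and had the most negative value in FL-KO vs. FL-WT (-1.59), where Cebpa (-1.20), the transcription factor gene Gata2 (-1.13) and the IL-3 receptor gene Il3ra (-1.01) were also DEGs, although Hdc alone was one on the relative scale. Mean Hdc levels in wild-type mice were 36.6 TPM on the ground and 41.0 TPM after flight, against 15.9 and 12.7 TPM in Nrf2-KO mice, an order of groups like that of Prss34. Ms4a2 and Cd200r3 differed in FL-KO vs. FL-WT by log2 fold changes of 0.09 (adjusted p = 0.673) and -0.06, and relative to all genes Ms4a2 rose by 0.43 (adjusted p = 0.00326). Of 18 other mast cell genes, 4 were high enough to be tested, and 3 of these fell in FL-KO vs. FL-WT, among them Kit, the stem cell factor receptor that progenitors also carry (-0.73). Of all genes, 47.2% fell, and the median of the 4 was -0.32, near the -0.25 of all genes. On the relative scale, 2 of the 4 fell and 1 rose, against 32.9% and 31.9% of all genes.

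Among 10 cytokine and receptor genes tested beyond the members, 2 fell with flight in wild-type mice and 9 in Nrf2-KO mice. With the loss of Nrf2, 7 fell on the ground and 8 after flight, where 6 were DEGs (3 on the relative scale). Of the 10, Il3ra, Csf2ra, Csf2rb, Csf2rb2, Il1rl1 and Kit were already counted in the lists above. The cytokines themselves were at the floor, with Il3 at 0 in every library and Il5 at no more than 0.02 TPM. Of 16 transcription factors, 4, 10, 13 and 14 fell in the same 4 comparisons. In FL-KO vs. FL-WT, 8 were DEGs, Gata2, Cebpa and Cebpe among them, and 1 was on the relative scale. Gata1, Gata2, Cebpa, Cebpe, Xbp1, Trib1 and Mitf of this list were also counted in the lists above. Of 16 other genes of IgE receptor signalling, 4, 9, 14 and 14 fell. The signalling enzymes Syk, Plcg2 and Inpp5d were DEGs in both Nrf2-KO vs. wild-type comparisons, where the relative scale left 1 DEG of this list on the ground and 3 after flight. Among 10 genes of the granule matrix and of lipid mediators, 2 rose in FL-WT vs. GC-WT, Alox15 and the proteoglycan gene Srgn, and 8 fell in FL-KO vs. FL-WT, with Hdc, Alox5, Alox15 and Ptgs1 as DEGs (2 DEGs on the relative scale). Relative to all genes, the numbers that fell in the 4 comparisons were 0, 5, 7 and 8 of the cytokine and receptor genes, 2, 3, 11 and 12 of the transcription factors and 1, 1, 13 and 13 of the signalling genes, against 13.6%, 20.4%, 28.9% and 32.9% of all genes. These lists hold genes of many marrow cells, and on log2(TPM + 1) the shares of all genes that fell were 39.0%, 53.1%, 42.9% and 47.2%.

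**Figure D3:**
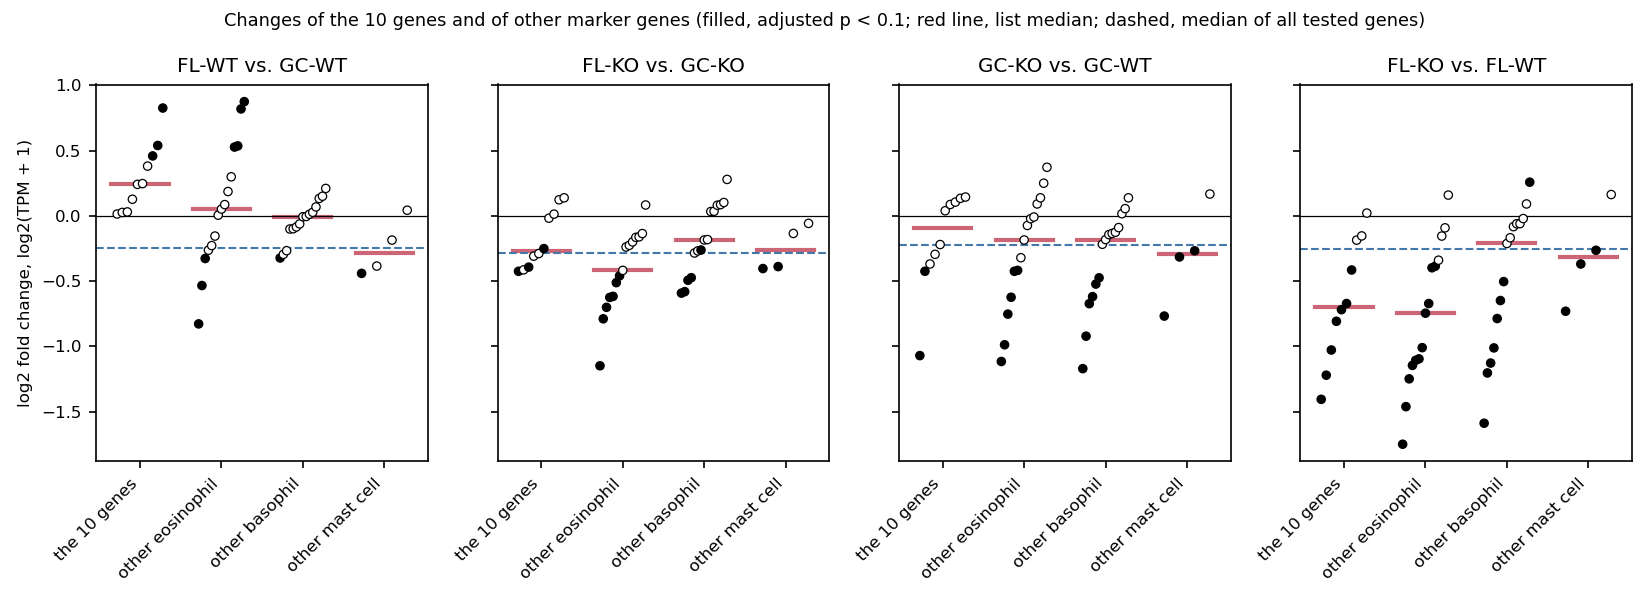
Log2 fold changes on log2(TPM + 1) of the 10 genes and of other eosinophil, basophil and mast cell genes in the 4 comparisons, a dot per gene, filled at an adjusted p under 0.1, with the median of each list as a red line and that of all tested genes as a dashed line. Members and other eosinophil genes hold genes that rose in FL-WT vs. GC-WT (3 of 10 and 4 of 15, against 0.994% of all genes). No other basophil gene did on this scale, although 6 did relative to all genes (20.6% of all). In FL-KO vs. FL-WT more genes of each list fell than rose, as over all 12373 tested genes, of which 47.2% fell and 236 rose.

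Across the 24 libraries, after the mean of each group was subtracted, 5 of the 6 eosinophil genes varied together most closely. Pearson's r of log2(TPM + 1) between Prg2, Prg3, Epx, Ear2 and Siglecf lay between 0.69 and 0.94 over 10 pairs, and between 0.51 and 0.89 without the 2 libraries farthest from the median. For Il5ra, the sixth and lowest of the eosinophil genes, r was 0.44 with Prg2 (0.09 without those libraries), 0.55 with Prg3, Epx and Siglecf and 0.72 with Ear2. With the basophil and mast cell genes, r of Il5ra was 0.56 (Cpa3), 0.53 (Fcer1a), 0.43 (Mcpt8) and 0.16 (Prss34). Among Mcpt8, Prss34, Cpa3 and Fcer1a, r lay between 0.29 and 0.69 over 6 pairs. Between these genes and the first 5, without Il5ra, r lay between -0.02 and 0.61 over 20 pairs. The libraries share the composition of TPM, which moves many genes together, and no p is given. Among 10420 genes compared, those most like Prg2 were Prg3 (r = 0.94, Spearman's rho = 0.91), Ear6 (0.91) and Ear1 (0.87). Those most like Ear2 were Ear1 (r = 0.97, rho = 0.96), which shares stretches of sequence with it, and Ear6 (0.95), followed by Prg3 (0.86). Epx went with Prg3 (0.84), Ear6 (0.84) and Alox15 (0.82), Prg3 with Prg2 (0.94), Ear6 (0.92) and Ear1 (0.89), and Siglecf with Epx (0.80), Adora3 (0.80) and Alox15 (0.80).

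None of the basophil and mast cell genes had another of them among the 3 most like genes. Prss34 was most like Pld4 (r = 0.94, rho = 0.94), Psap (0.94) and Hcls1 (0.94), Mcpt8 like Tpd52 (0.89) and Trabd (0.87), and Fcer1a like S100a8 (0.92), Milr1 (0.89) and Fam204a (0.89). Cpa3 was most like 2210406H18Rik (0.90), Fam122a (0.89) and Cnot4 (0.88). Il5ra was most like Gm8113 (0.84), Gm20559 (0.76) and P2ry14 (0.75), at levels near 1 TPM where values are coarse.

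**Figure D4:**
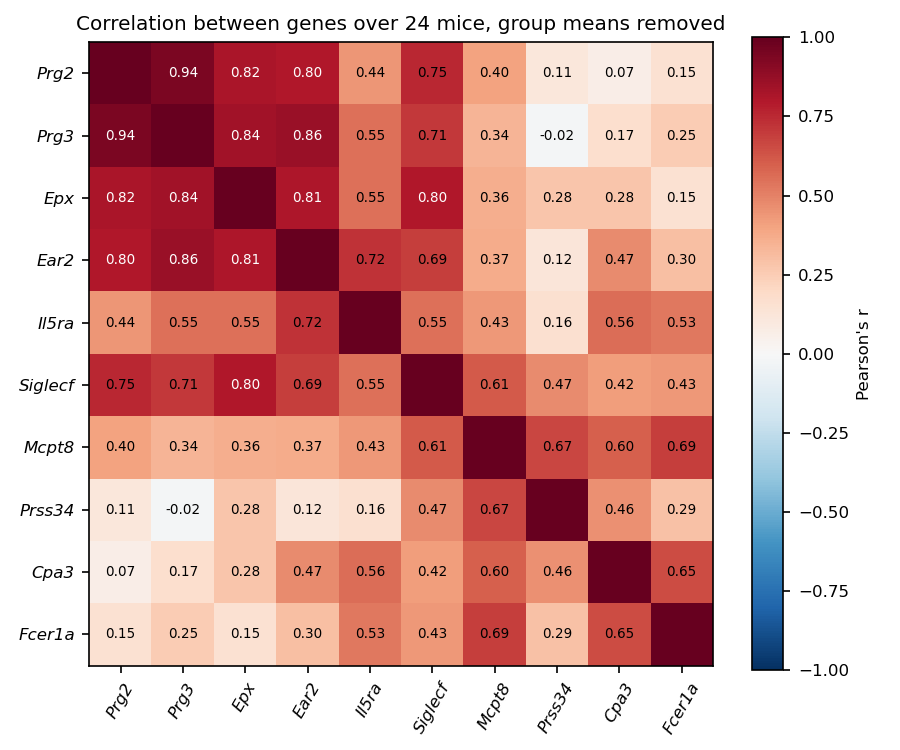
Pearson's r of log2(TPM + 1) between the 10 genes over 24 libraries after subtraction of group means. Prg2, Prg3, Epx, Ear2 and Siglecf form a block with r from 0.69 to 0.94, whereas r among Mcpt8, Prss34, Cpa3 and Fcer1a is 0.69 at most.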

How the data were processed

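RNA-seq of bone marrow cells was analysed for 24 mice in the 4 groups given by the sample labels. The authors isolated RNA from cryopreserved cells with ISOGEN-LS, made stranded libraries (MGIEasy RNA Directional Library Prep Set, DNBSEQ-G400 sequencer) and, per the submitters' processing notes, used STAR 2.6.1 on mm10 for alignment and RSEM 1.3.1 for TPM. The gene annotation was not given in the sources used here. The deposited table holds TPM without read counts, so depth and counting error are unknown.

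Of 54752 genes, 26504 were at 0 in every library. The 12373 genes with a TPM above 1 in at least 1 library were transformed to log2(TPM + 1) and compared by limma (3.58.1, R 4.3.3) in 1 fit of all 24 libraries with a mean per group. Adjusted p-values are Benjamini-Hochberg values over all tested genes. DEGs reached an adjusted p under 0.1 together with a change of at least 2-fold, thresholds from the study's methods. As a check, TPM rank sums were compared by exact two-sided permutation for every gene, whose smallest possible p with 6 against 6 mice is 0.00216. Tables and plots were made with pandas 2.3.3, numpy 2.4.6 and matplotlib 3.10.9 in Python 3.11.15. Gene positions came from GENCODE M21 on GRCm38. On simulated data for FL-WT vs. GC-WT, 98.5% of 200 genes changed by 1.5 on the log2 scale were recovered, with 0 false calls among the 12173 unchanged genes. The changed genes were drawn from those with higher levels, and each gene varied on its own, without a shift of whole libraries. These rates therefore do not carry over to low genes, to smaller changes or to the choice of scaling.

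The members, gene lists and tests were chosen with earlier results of these data known. Named are all 10 members, Nfe2l2, of each list at most the 4 genes with the largest change among those called per comparison, and the 3 genes most like each member, of which 1 is not reported here. The other genes named (levels of marker genes, genes not called, DEGs beyond the 4) were chosen after their values were seen. The alternatives were other pseudocounts and filters, median-of-ratios and quantile scaling, leaving out 5 small RNAs, other fits and thresholds, each mouse left out, and the mouse number as a block.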

Additional observations from a re-analysis of the deposited data

Results flagged for a closer look

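Of 40 combinations of a group and a member, 3 held a mouse far from the other 5 of its group by Dixon's criterion, which chance gives in about 1 in 20. Prg2 was at 1075.67 TPM in FL-WT mouse 08, Ear2 at 331.3 TPM in FL-WT mouse 10 and Cpa3 at 9.81 TPM in FL-KO mouse 11, each the highest of its group. None of the levels of FL-KO mouse 09 met this criterion.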

How the results depend on the processing

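Counts of DEGs among the members followed the scaling and the fold threshold. With median-of-ratios scaling, 1 member was a DEG for flight in wild-type mice, 0 for the genotype on the ground and 1 for the genotype after flight, and with quantile normalization 0 and 1 for the genotype. Of all 12373 genes, 22 were higher DEGs for flight in wild-type mice with median-of-ratios scaling, and 424 were lower DEGs for the genotype after flight. Without a minimum fold change, the counts were 3 and 3 for flight in wild-type and Nrf2-KO mice and 2 and 7 for the genotype on the ground and after flight. When each mouse was left out, 2 to 3 members were DEGs for the genotype after flight, 0 to 1 on the ground (0 without GC-KO mouse 04) and 0 to 0 for flight in either genotype and for the interaction. The median of the members less that of all genes then lay between 0.441 and 0.529 for flight in wild-type mice, -0.033 and 0.203 for flight in Nrf2-KO mice, 0.072 and 0.176 for the genotype on the ground, and -0.520 and -0.211 for it after flight.

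Changes of sign affected log2 fold changes that had not passed the threshold, except for Prg3, Epx and Siglecf for flight in Nrf2-KO mice and Cpa3 for the genotype after flight. Median-of-ratios scaling gave, for flight in Nrf2-KO mice, 0.036 for Prg2, 0.005 for Prg3, 0.045 for Epx, 0.158 for Ear2, 0.277 for Il5ra, 0.062 for Siglecf and 0.126 for Prss34. It gave 0.023 for Siglecf and 0.037 for Mcpt8 for the genotype on the ground, 0.113 for Il5ra and 0.210 for Mcpt8 after flight, and 0.059 for Fcer1a in the interaction. Quantile normalization gave, for flight in Nrf2-KO mice, 0.345 for Il5ra, 0.115 for Siglecf and 0.034 for Prss34, for the genotype on the ground -0.032 for Prg2 and 0.071 for Siglecf, after flight 0.194 for Il5ra, 0.173 for Mcpt8 and 0.046 for Cpa3, and in the interaction 0.088 for Fcer1a. Without the 5 small RNAs, Mcpt8 was at -0.008 for flight in wild-type mice, Il5ra at 0.112 for flight in Nrf2-KO mice, Ear2 at -0.030 and Fcer1a at -0.067 for the genotype on the ground, and Fcer1a at 0.170 in the interaction. When each mouse was left out, flight in wild-type mice ran from -0.067 to 0.093 for Mcpt8, -0.083 to 0.144 for Prss34 and -0.055 to 0.137 for Fcer1a. Flight in Nrf2-KO mice ran from -0.073 to 0.077 for Il5ra and -0.076 to 0.118 for Fcer1a, the genotype from -0.066 to 0.145 on the ground and -0.070 to 0.066 after flight for Fcer1a, and the interaction from -0.081 to 0.090 for Cpa3 and -0.124 to 0.088 for Fcer1a. The cause was not tested.

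Ground and flight mice share mouse numbers, which are not said to mark a litter, cage or day, so the numbers were not taken to pair the mice. A pairing is not excluded: 6 of 12 pairs had a correlation of their deviations over 0.1. Of 12 flight mice, 5 correlated best with the ground mouse of their own number. With the replicate block, 0 members were DEGs with flight in either genotype, 5 instead of 3 rose in wild-type mice (Prg3 by 0.381, adjusted p = 0.035, and Siglecf by 0.247, adjusted p = 0.0547, in addition), 4 instead of 3 fell in Nrf2-KO mice (Prg2 at -0.414, adjusted p = 0.0228), and the interaction of Prg2 (-0.953) reached an adjusted p of 0.0991 by limma. Depth was unknown, so the precision at the low levels of Il5ra and Siglecf could not be judged from counts.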
